A study of Mus musculus with 11 samples.

Results

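The genes described here encode the Myc, Max and Mxd network of transcription factors in mouse CD8 T cells recovered from tumors. They are Myc, its obligate partner Max, and 6 genes of proteins that also pair with Max and oppose Myc or act apart from it: Mxd1, Mxd3, Mxd4, Mxi1, Mnt and Mga. All 8 genes had a row that names 1 gene alone on the array, out of 20259 genes named in this way, and all 8 passed the filter on dim genes, as did 15194 genes in all. The list was drawn up with earlier results of these data known, among them a low Mxd4 in KO T cells, and for a gene with several rows the row was chosen by its mean log2 signal over all arrays. Values that led to that choice are given below as a description.

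Proteins of this family bind DNA as pairs through a basic helix-loop-helix leucine zipper. Myc with Max binds E-box sequences and recruits coactivators to genes of growth, ribosome production and metabolism, and in T cells Myc is induced by antigen and interleukin 2 and drives the growth that precedes division. The Mxd proteins, Mxi1 and Mnt bind the same E-boxes with Max and recruit Sin3 corepressors, and several of them are known from quiescent or differentiating cells, whereas Mga pairs with Max inside a Polycomb complex.

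Transcripts were measured on 11 arrays in 3 groups, and galectin-3, the secreted lectin encoded by Lgals3, was present (WT) or knocked out (KO) in T cells or hosts. WT T cells in WT hosts (n = 4) were the reference, beside WT T cells in KO hosts (n = 3) and KO T cells in KO hosts (n = 4). No group holds KO T cells in WT hosts. In all groups the transferred cells were taken from TCR transgenic donors carrying Thy1.2, the surface marker by which they were sorted, and the hosts bore NT2.5 mammary tumors and had received 100 mg/kg cyclophosphamide on day 8, a GM-CSF-secreting whole-cell vaccine on day 9 and the T cells on day 10, with tumors taken 5 days later. The sources used here give neither the ages of the mice nor how many mice stand behind an array, so the p-values speak only of the spread among these arrays, which may be technical.

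Values are log2 signals as deposited, and a signal of 1 gene cannot be set against that of another gene, since each rests on probes of its own. Lgals3 was lowest in the KO T cells, at 7.26 to 7.55 against 8.02 to 8.49 in all arrays of WT T cells. Of 9 marker genes of CD8 T cells, 8 could be tested, and their mean log2 signal lay between 9.50 and 9.80 in all arrays. Markers of monocytes and macrophages differed with the host. The mean of 14 such genes was 6.31 to 6.50 in WT hosts, 6.72 to 7.27 with WT T cells in KO hosts and 6.66 to 7.08 with KO T cells in KO hosts. The 14 genes were each higher in both KO-host groups than in the reference, while 4 were higher and 10 lower in KO than in WT T cells within KO hosts. Arrays 1 and 4 of the reference group spanned a narrower range of values, with slopes of 0.956 and 0.934 on the mean array against 0.989 to 1.04 in the others. The mean of 4 NK cell markers was 6.11 to 6.44 in WT hosts and 6.50 to 6.86 in KO hosts. In WT T cells, 3 of these were higher and 1 lower in KO hosts, with Tyrobp at 1.02 (SE 0.29) and Eomes at -0.01 (SE 0.16). The mean of 6 dendritic cell markers was 5.99 to 6.10 in WT hosts and 6.19 to 6.53 in KO hosts. That of 8 tumor epithelium markers was 5.15 to 5.58 in WT hosts. In KO hosts it was 5.26 to 5.35 with WT T cells and 5.09 to 5.32 with KO T cells. All 8 were lower in KO T cells than in the reference, and 6 of the 8 were in WT T cells in KO hosts. Without the narrow reference arrays, 3 of the 8 were higher in KO T cells and 4 in WT T cells in KO hosts. Fewer cells of a type and less RNA per cell cannot be told apart in such bulk RNA.

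The core promoters of the network hold E-boxes of their own, and these are shown because Mxd4 and Mnt, which were both lowest in KO T cells, each carry one. The letters CACGTG, which read the same on both strands, were searched in the 300 bases around each annotated start, most of them before the start, in RefSeq sequence of build GRCm38.p6. Of the 8 genes, 7 are in that promoter table (Myc is not), and 3 of the 7 hold the motif, against 8.1% of 27025 genes. Mxd4 lies on the minus strand of chromosome 5 and is shown for chr5:34187661-34187960, and Mnt lies on the plus strand of chromosome 11 and is shown for chr11:74830674-74830973. Capitals mark the E-box, which begins at base 32 of the Mxd4 run and at base 128 of the Mnt run.
Mxd4: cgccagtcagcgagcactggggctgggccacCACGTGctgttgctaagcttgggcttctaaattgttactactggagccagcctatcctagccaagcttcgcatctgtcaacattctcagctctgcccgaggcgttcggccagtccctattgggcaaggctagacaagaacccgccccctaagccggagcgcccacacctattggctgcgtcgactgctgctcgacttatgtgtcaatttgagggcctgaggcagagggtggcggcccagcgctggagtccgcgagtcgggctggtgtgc
Mnt: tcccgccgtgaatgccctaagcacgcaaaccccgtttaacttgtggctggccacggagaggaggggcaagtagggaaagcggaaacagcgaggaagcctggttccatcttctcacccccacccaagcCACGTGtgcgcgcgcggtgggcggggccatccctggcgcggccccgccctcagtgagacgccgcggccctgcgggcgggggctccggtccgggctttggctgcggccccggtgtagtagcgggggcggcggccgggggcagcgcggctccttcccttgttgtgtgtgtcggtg

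The third E-box belongs to Max and lies at its start site, beginning at base 248 of its window. It is shown in 40 bases of the minus strand, chr12:76962229-76962268, with the motif in capitals.
Max: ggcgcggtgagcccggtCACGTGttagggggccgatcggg

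No E-box of these letters lay in the windows of Mxd1, Mxd3, Mga or any of the 3 start sites of Mxi1. A match to GTAAACA, a core recognised by FoxO factors, was found on either strand at 1 start site of Mxi1 (4.1% of all genes hold it), and a match to GGCGGGAA, a form of the E2F site, in Mxd3 (2.5% of all genes). Among the 34 known Myc-induced genes with a promoter in the table, 10 (29.4%) held the E-box. A motif match is a description of the sequence, not of binding in these cells.

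Mxd4, an Mxd protein that replaces Myc on Max, had its highest mean in the reference and its lowest in KO T cells. Its log2 signal was 8.45, 8.55, 8.31 and 8.16 in WT T cells in WT hosts, 8.07, 8.15 and 8.14 in WT T cells in KO hosts, and 7.64, 7.74, 7.93 and 7.86 in KO T cells in KO hosts. No 2 of the groups overlapped. Every array of the reference lay above every array of WT T cells in KO hosts, though narrowly (8.157 at the lowest against 8.147 at the highest). All arrays of WT T cells in KO hosts in turn exceeded every array of KO T cells. Of all genes, 5.32% were lower without overlap between hosts. The shares were 2.41% for KO T cells against the reference and 1.81% between T cells in KO hosts. Group means were 8.37 ± 0.17 (SD, n = 4), 8.12 ± 0.04 (SD, n = 3) and 7.79 ± 0.13 (SD, n = 4).

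KO T cells in KO hosts were 0.57 lower in Mxd4 than the reference on the log2 scale (difference -0.57, SE 0.11). This value was known when the genes were chosen and is given as a description, with no test. Set against WT T cells of KO hosts, Mxd4 differed by -0.33 (SE 0.12) in the same KO arrays, again as a description, and between hosts, in WT T cells, by -0.25 (SE 0.12; limma adjusted p = 0.659). Each pair of comparisons shares a group of arrays, so these values do not support each other. Mxd4 stayed lower under each alternative setting that moved its value (14 of 23 against the reference and between hosts, 13 of 23 between T cells in KO hosts). Differences were -0.70 to -0.51 for KO T cells against the reference, -0.37 to -0.28 between T cells in KO hosts and -0.38 to -0.18 between hosts. As its groups do not overlap, leaving out arrays could not turn its sign, and nothing is read from this direction. With the macrophage score of each array in the fit, KO T cells were at -0.62 against the reference. The score was -0.428 to -0.233 on arrays of WT hosts and -0.077 to 0.539 on arrays of KO hosts. These ranges do not overlap, so a fit with the score cannot part it from the host. The mean of 8 neutrophil markers was also apart in KO T cells, at 5.21 to 5.50 against 4.77 to 5.12 on all other arrays. Against the reference this mean followed a few genes, with S100a8 at 2.72 (SE 0.55) and Csf3r at 0.67 (SE 0.18). There 3 of the 8 genes were higher and 5 lower (Elane at -0.20, SE 0.13), with a median of -0.02 as for all genes. Without the narrow reference arrays 6 of the 8 were higher there, with a median of 0.07. Compared with WT T cells in KO hosts all 8 were higher, with a median of 0.095 beside 0.011 for all genes. S100a8 was at 1.535 (SE 0.59) in that comparison. The part of the neutrophil markers in the Mxd4 and Mnt values was not tested.

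Mnt, the most widely expressed Max partner of the repressing branch, was lower in KO T cells by its values, though not past the threshold. Its log2 signal was 8.59, 8.67, 8.61 and 8.73 in the reference, 8.47, 8.68 and 8.72 in WT T cells in KO hosts, and 8.53, 8.22, 8.05 and 8.40 in KO T cells in KO hosts. All 4 KO arrays lay below all 4 reference arrays, while KO array 1 lay above the lowest array of WT T cells in KO hosts. The difference was -0.35 (SE 0.12; limma adjusted p = 0.482) from the reference and -0.33 (SE 0.13; limma adjusted p = 1) from the WT T cells of KO hosts. Between hosts it was -0.02 (SE 0.13; limma adjusted p = 0.960), with a 95% interval of -0.30 to 0.26. Without array 3 of KO T cells, the lowest, the first 2 were -0.27 and -0.24.

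Myc itself was higher in both KO-host groups by its means, with overlapping arrays. Its log2 signal was 5.17, 5.76, 5.33 and 5.27 in the reference, 5.55, 5.88 and 5.50 in WT T cells in KO hosts, and 5.91, 5.49, 5.63 and 5.73 in KO T cells in KO hosts. Of the reference arrays, 3 lay below every KO-host array, and array 2 lay among or above most of them. The difference was 0.31 (SE 0.15; 95% interval -0.02 to 0.64; limma adjusted p = 0.600) for KO T cells in KO hosts and 0.26 (SE 0.16; 95% interval -0.09 to 0.62; limma adjusted p = 0.670) for WT T cells in KO hosts, both against the reference. Without reference array 2 these were 0.43 and 0.39, and without array 2 of WT T cells in KO hosts the second was 0.14. Without the narrow reference arrays 1 and 4 they were 0.15 and 0.10, and with the value range of an array in the fit 0.17 and 0.11, so the size of the Myc difference moved with these arrays. Between KO and WT T cells in KO hosts it was 0.05 (SE 0.16), with an interval of -0.31 to 0.40, and its sign turned without any 1 of 3 arrays.

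**Figure D1:**
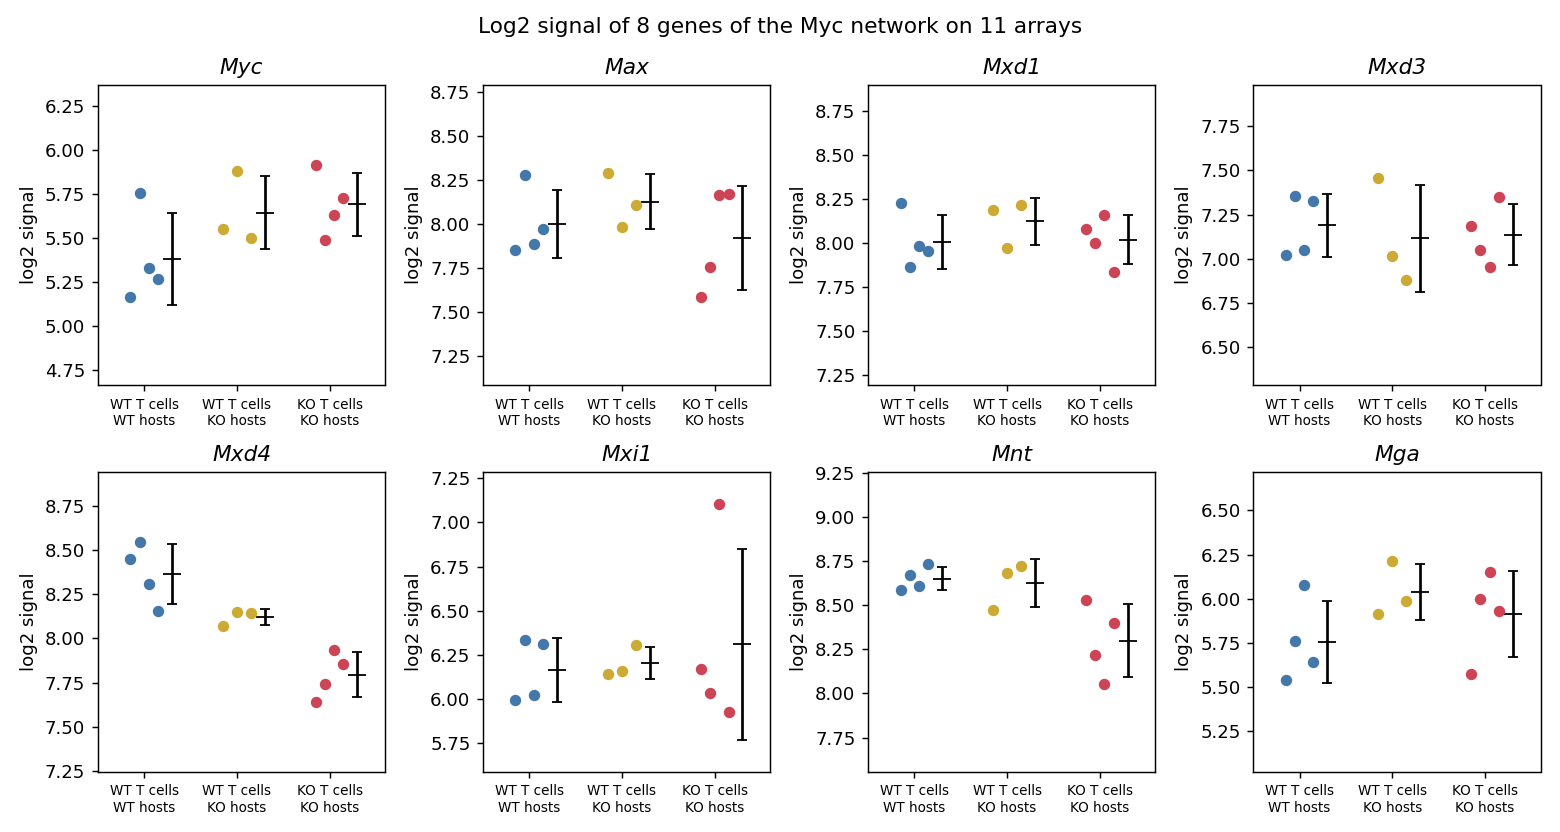
Log2 signal (vertical axis, the same height in each panel) of the 8 genes on every array, by group, with the mean and SD in black beside the points. Mxd4 arrays do not overlap between groups, at 8.16 to 8.55 in the reference and 7.64 to 7.93 in KO T cells. Those of WT T cells in KO hosts, at 8.07 to 8.15, lie just below the reference. Mxi1 has a lone high KO array at 7.11.

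Max, with which Myc and its antagonists bind E-boxes, ranged from 7.59 to 8.29, and its groups overlapped. Group means were 8.00 ± 0.19 (SD, n = 4) in the reference, 8.13 ± 0.15 (SD, n = 3) for WT T cells and 7.92 ± 0.30 (SD, n = 4) for KO T cells, both in KO hosts. KO T cells differed from the reference by -0.08 (SE 0.16) and from WT T cells in KO hosts by -0.21 (SE 0.17). The latter was -0.10 without KO array 1 and -0.13 without array 1 of WT T cells in KO hosts. Between hosts Max was at 0.13 (SE 0.17), and at 0.02 after quantile normalization. KO arrays 1 and 2, at 7.59 and 7.76, were the lowest of all, while arrays 3 and 4 stood at 8.17.

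Mxd1, the founding Mad protein, which accompanies differentiation, lay between 7.83 and 8.23 with group means of 8.01, 8.12 and 8.02. It was the gene with the smallest difference between KO T cells and the reference, at 0.01 (SE 0.12; 95% interval -0.24 to 0.27). Mxd3, which in other cells peaks in S phase and need not oppose growth, lay between 6.88 and 7.46, with differences of -0.07 (SE 0.16) between hosts, -0.05 (SE 0.15) for KO T cells against the reference and 0.02 (SE 0.16) between T cells in KO hosts.

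Mxi1, a further Sin3-recruiting antagonist, was between 5.93 and 6.34 on 10 arrays and at 7.11 on array 3 of KO T cells. That array set the difference of 0.14 (SE 0.22) from the reference, which became -0.12 without it. A second row of Mxi1, with a mean log2 signal of 3.36, lay under the filter value of 4.33 and gave -0.19 (SE 0.64). Mga, the largest protein of the network, had group means of 5.76, 6.04 and 5.92 and differences from the reference of 0.28 (SE 0.16; limma adjusted p = 0.667) in WT T cells in KO hosts and 0.16 (SE 0.15; limma adjusted p = 0.734) in KO T cells. Its second row, with a mean of 3.83, gave -0.17 (SE 0.32) and -0.16 (SE 0.295), so the rows differed in sign. Between hosts Mga was at 0.02 with the value range in the fit, 0.12 without the narrow reference arrays, 0.16 with the macrophage score and 0.06 with its rows averaged.

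In each of the 3 comparisons 0 of the 8 genes, and 0 of all 15194 (0%), reached an adjusted p below 0.05 in limma. Lgals3, knocked out in the KO T cells, did not reach it either. It was at -0.87 (SE 0.13, limma adjusted p = 0.103) in KO T cells against the reference. Between T cells in KO hosts it was at -0.84 (SE 0.14, limma adjusted p = 0.661). A gene that missed the threshold is thus not shown to be unchanged. Against the reference, KO T cells had 2 of the 8 (Mxd4 and Mnt) lower at an unadjusted p under 0.05, beside 3.67% of all genes, and none higher, beside 4.79% of all genes. Mxd4 was known to be low there, so nothing is read from this count. The same 2 were lower without overlap between groups, beside 2.41% of all genes, and none was higher without overlap, beside 2.61%. Between KO and WT T cells in KO hosts, the same 2 were lower at that unadjusted p, beside 1.48% of all genes, and none was higher, beside 1.93%. These are the same KO arrays in which Mxd4 was known to be low, so nothing is read from this count either. There Mxd4 alone was lower without overlap (1.81% of all genes) and none was higher (2.26%). Between hosts, none of the 8 reached that unadjusted p in either direction, beside 3.62% of all genes higher and 3.86% lower, and Mxd4 alone was lower without overlap (5.32% of all genes; 3.57% were higher). Medians over the 8 genes were 0.08 between hosts, -0.02 for KO T cells against the reference and -0.12 between T cells in KO hosts, beside -0.03, -0.02 and 0.01 over all genes.

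**Figure D2:**
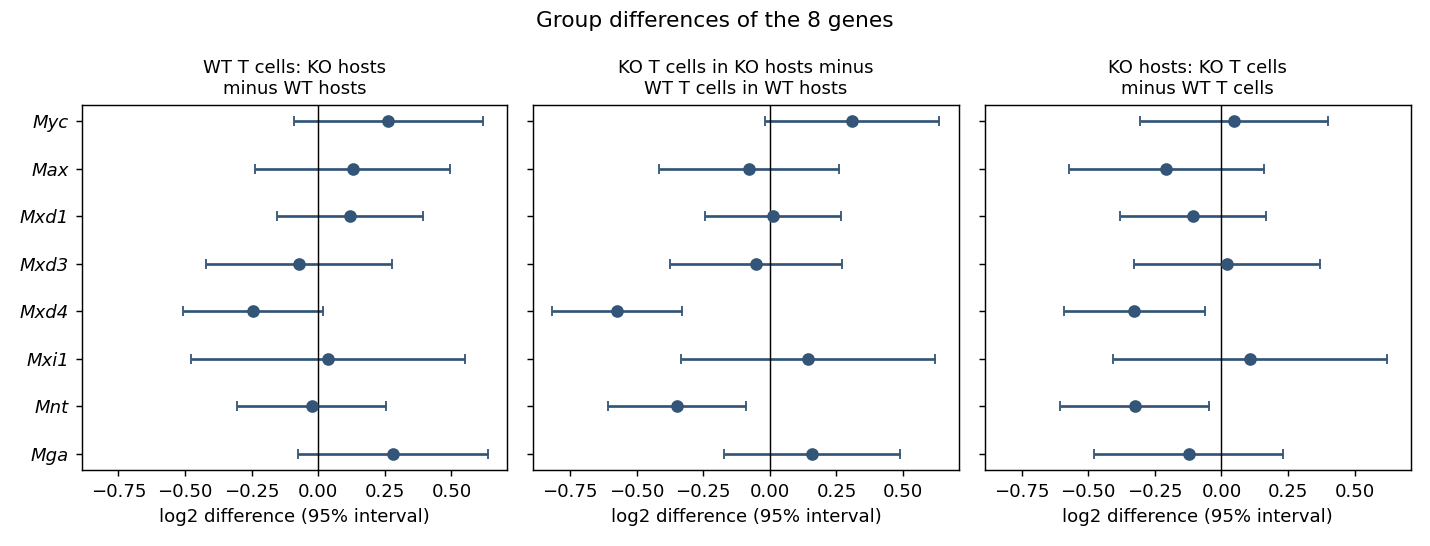
Log2 differences between groups (horizontal axis) for the 8 genes in the 3 comparisons, with points for the estimate and bars for the unadjusted 95% interval. Mxd4 (-0.57 and -0.33) and Mnt (-0.35 and -0.33) have the lowest estimates in both comparisons that involve KO T cells; Mxd4 was known to be low there, so its bars show spread and are no test.

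The 8 genes did not vary as 1 unit across arrays. Of 28 pairs, none passed after Benjamini-Hochberg adjustment over the pairs (lowest permutation adjusted p = 0.841 for Pearson r and 0.901 for Spearman rho). Mxd4 and Mnt had the highest Pearson r of all pairs, at 0.57 (permutation p = 0.0689, adjusted p = 0.841; n = 11 arrays), with a Spearman rho of 0.62 (permutation p = 0.0482, adjusted p = 0.901). Without the 2 arrays farthest from the median of Mxd4, r was 0.68. After subtracting group means it was -0.41, so the pooled relation did not hold within groups. Myc and Mxd4 had r = -0.42 pooled (permutation p = 0.200, adjusted p = 0.841; rho -0.39, permutation p = 0.235, adjusted p = 0.901), 0.02 without 2 arrays and 0.23 within groups. Arrays of a group share its T cell and host genotype, which a pooled value takes up. Mxd4 was known to be low in KO T cells, so nothing is read from the pooled p-values of its pairs.

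Known Myc-induced genes, which serve ribosome production, translation and nucleotide synthesis, were mostly above the reference in both KO-host groups by small amounts, and none of them passed. Of 42 listed genes 41 were tested. In KO T cells in KO hosts 35 were higher than in the reference (85.4%, against 46.7% of all genes), with a median of 0.14 beside -0.02 for all genes, and 4 were higher at an unadjusted p under 0.05, where 4.79% of all genes were. That number was 2 after quantile normalization, with the value range in the fit or without the narrow reference arrays. The 4 were the RNA helicase Ddx18 at 0.46 (SE 0.16), the cap-binding protein Eif4e at 0.55 (SE 0.23), the phosphatase Cdc25a at 0.35 (SE 0.15) and Mybbp1a at 0.30 (SE 0.13). In WT T cells in KO hosts 32 were higher, with a median of 0.09, among them the RNA polymerase I subunit Polr1b at 0.47 (SE 0.13) and Eif4e at 0.57 (SE 0.24). Between KO and WT T cells in KO hosts 25 were higher and 16 lower, with a median of 0.03 beside 0.01. The first count was 30 of 41 without the narrow reference arrays, with a median of 0.10, and 31 of 41 after quantile normalization, with a median of 0.08. In WT T cells in KO hosts the median was 0.03 after quantile normalization, with 23 of 41 genes higher. The macrophage scores given above move with the same arrays, and with the score in the fit the medians were 0.21 for KO and 0.19 for WT T cells in KO hosts. Such a fit cannot part the score from the host, so nothing is read from these medians.

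Of 6 genes that Myc is known to repress, 4 were higher and 2 lower in KO T cells in KO hosts than in the reference. The cell cycle inhibitor Cdkn1a was at 0.43 (SE 0.18; limma adjusted p = 0.568), and Cdkn1b at -0.12 (SE 0.21). Between T cells in KO hosts 4 of the 6 were lower, with Cdkn2b at -0.18 (SE 0.14). None passed in any comparison.

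The parallel branch of the network is built on Mlx, which also pairs with Mxd1, Mxd4 and Mnt. Mlx was at 0.60 (SE 0.19; limma adjusted p = 0.468) in KO T cells in KO hosts and at 0.50 (SE 0.21; limma adjusted p = 0.654) in WT T cells in KO hosts, both against the reference. Its partner Mlxip, known as MondoA, was at 0.23 (SE 0.12) in KO T cells. Txnip and Arrdc4, arrestin-related genes that MondoA induces when glucose metabolites are plentiful, were at 0.57 (SE 0.22) and 0.23 (SE 0.15) between hosts and at -0.46 (SE 0.22) and -0.30 (SE 0.15) when KO and WT T cells within KO hosts were compared. Of the 7 genes in this list, 0 passed in any comparison. At an unadjusted p under 0.05, 2 of the 7 were higher between hosts, beside 3.62% of all genes. That number was 0 after quantile normalization or without the narrow reference arrays.

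Corepressors of the Sin3 complex, through which the antagonists act, had 8 of 9 tested genes higher in each KO-host group than in the reference, where 45.5% (WT T cells) and 46.7% (KO T cells) of all genes were. The medians were 0.17 for WT and 0.13 for KO T cells. With the macrophage score in the fit, which cannot be parted from the host, 6 of 9 were higher in each, with medians of 0.08 and 0.05. After quantile normalization 7 and 6 were higher. The Sin3 component Sap30 was at 0.26 (SE 0.11) and 0.30 (SE 0.10), and Sin3a at 0.22 (SE 0.11) in KO T cells. Among 10 tested coactivators and partners of Myc, the helicase Ruvbl1 was at 0.95 (SE 0.36) between hosts. The kinase Cdk9 and its cyclin Ccnt1, which release paused RNA polymerase II, were at -0.68 (SE 0.17) and -0.48 (SE 0.22) in KO compared with WT T cells of KO hosts. Zbtb17, known as Miz1, through which Myc represses genes, was at 0.74 (SE 0.33) there and at -0.57 (SE 0.33) between hosts, while Cdk9 was at 0.39 (SE 0.17) between hosts. For the coactivator list the median between hosts was 0.13 but -0.09 without the narrow reference arrays. In KO T cells against the reference it was 0.13, and -0.11 without them. None of the genes in these lists passed.

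Among 11 tested genes that set the stability of Myc protein was Cip2a, which protects Myc from dephosphorylation. It was at 0.65 (SE 0.16, limma adjusted p = 0.405) in KO T cells against the reference and at 0.41 (SE 0.17) between hosts. Fbxw7, the ubiquitin ligase component that marks Myc for destruction, was at 0.37 (SE 0.15) between hosts and at -0.26 (SE 0.15) between T cells in KO hosts. In this list 2 of 11 genes were higher between hosts at an unadjusted p under 0.05, beside 3.62% of all genes. That number was 0 without the narrow reference arrays, beside 2.43% of all genes. Of 11 partners of Mga in its Polycomb complex, Yaf2 was at 0.62 (SE 0.23) and Rnf2 at 0.35 (SE 0.15) in KO T cells against the reference. Between hosts Yaf2 was at 0.12 and Rnf2 at 0.49 (SE 0.16), and 0 of the 11 passed.

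Most proliferation genes had higher means in KO T cells, though 1 of the 4 KO arrays overlapped the other groups. Of 23 tested, 21 were higher than in the reference, with a median of 0.29 beside -0.02 for all genes, and 22 were higher than in WT T cells in KO hosts, with a median of 0.23 beside 0.01. Between hosts, in WT T cells, 17 were higher and 6 lower, with a median of 0.05 beside -0.03 for all genes. The kinetochore protein Cenpf was at 0.66 (SE 0.13) in KO T cells against the reference. It was at 0.46 (SE 0.14) between hosts and at 0.20 between T cells in KO hosts. The mitotic kinase Plk1 was at 0.53 (SE 0.17) relative to WT T cells of KO hosts and at -0.12 between hosts. Of the 23 genes, 0 passed in any comparison. Without the narrow reference arrays 22 were higher in KO T cells than in the reference, with a median of 0.24. Between hosts 14 were then higher, with a median of 0.04. By array, the mean deviation of these genes was highest in KO array 4, at 0.40, where Mxd4 was 7.86 and Mnt 8.40. In KO array 3, where Mxd4 was 7.93 and Mnt 8.05, it was -0.04. That was below reference array 3 (-0.02) and array 2 of WT T cells in KO hosts (-0.01). KO arrays 1 and 2, where Mxd4 was 7.64 and 7.74 and Mnt 8.53 and 8.22, stood at 0.10 and 0.18. A relation of this deviation to Mxd4 or Mnt was not tested. Quiescence genes had 9 of 12 members lower in KO than in WT T cells in KO hosts, with a median of -0.17 beside 0.01 for all genes. Among them were the quiescence factor Klf2 at -0.50 (SE 0.16) and the homing receptor Ccr7 at -0.42 (SE 0.15), and none passed. Klf2 was at -0.16 (SE 0.15) in KO T cells against the reference and at 0.34 (SE 0.16) between hosts. Ccr7 was at -0.45 (SE 0.14) and -0.03 in these comparisons. Against the reference 7 of the 12 were lower in KO T cells, with a median of -0.06 beside -0.02, and between hosts 7 were higher. Both counts moved with the narrow reference arrays. Without them 1 of the 12 was higher in KO T cells than in the reference, with a median of -0.135. Between hosts 4 of the 12 were then higher, with a median of -0.056. KO array 3 had the highest mean deviation of the quiescence list of all 11 arrays, at 0.17.

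**Figure D3:**
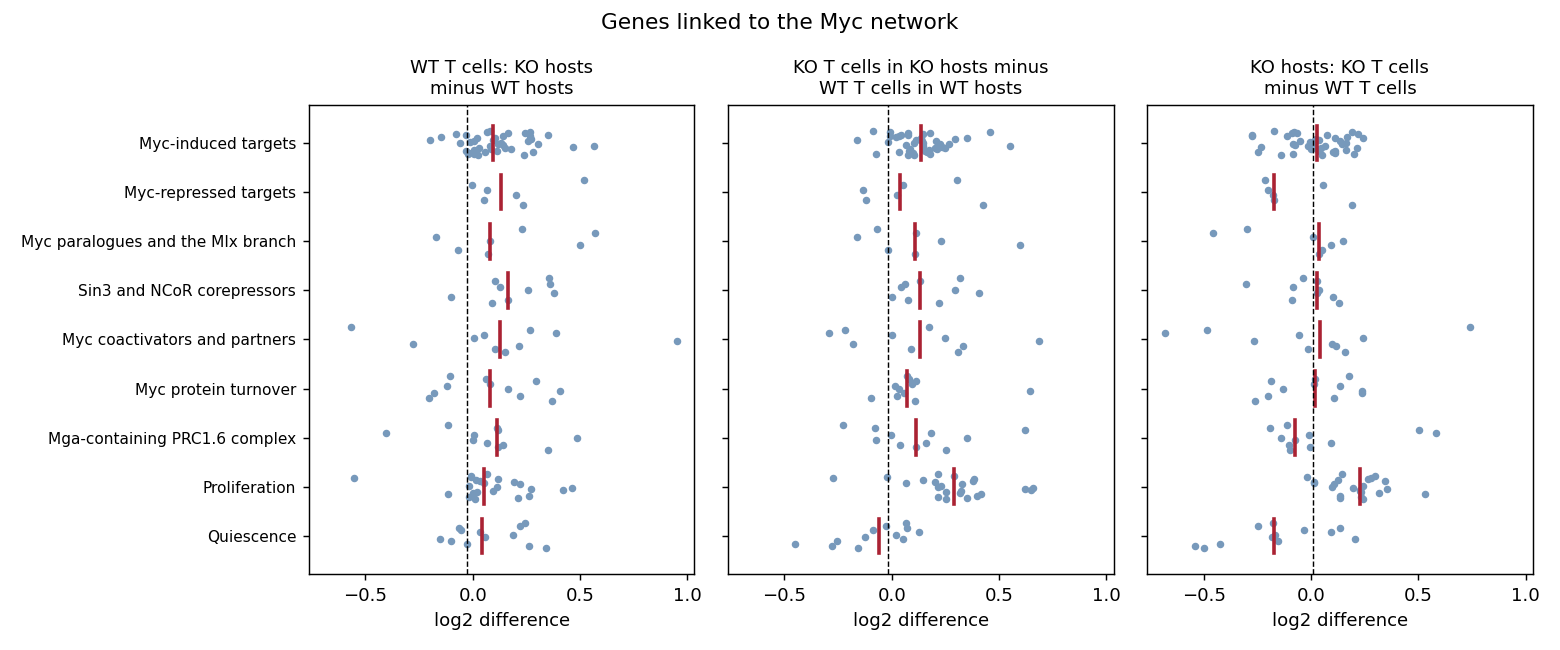
Log2 differences (horizontal axis) of single genes in 9 lists linked to the network, in the 3 comparisons, with each list's median as a red bar and the median of all tested genes as a dashed line. The proliferation list lies to the right in both comparisons that involve KO T cells (medians 0.29 and 0.23, beside 0.05 between hosts). The Myc-induced list lies less far to the right in KO T cells against the reference (median 0.14).

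**Figure D4:**
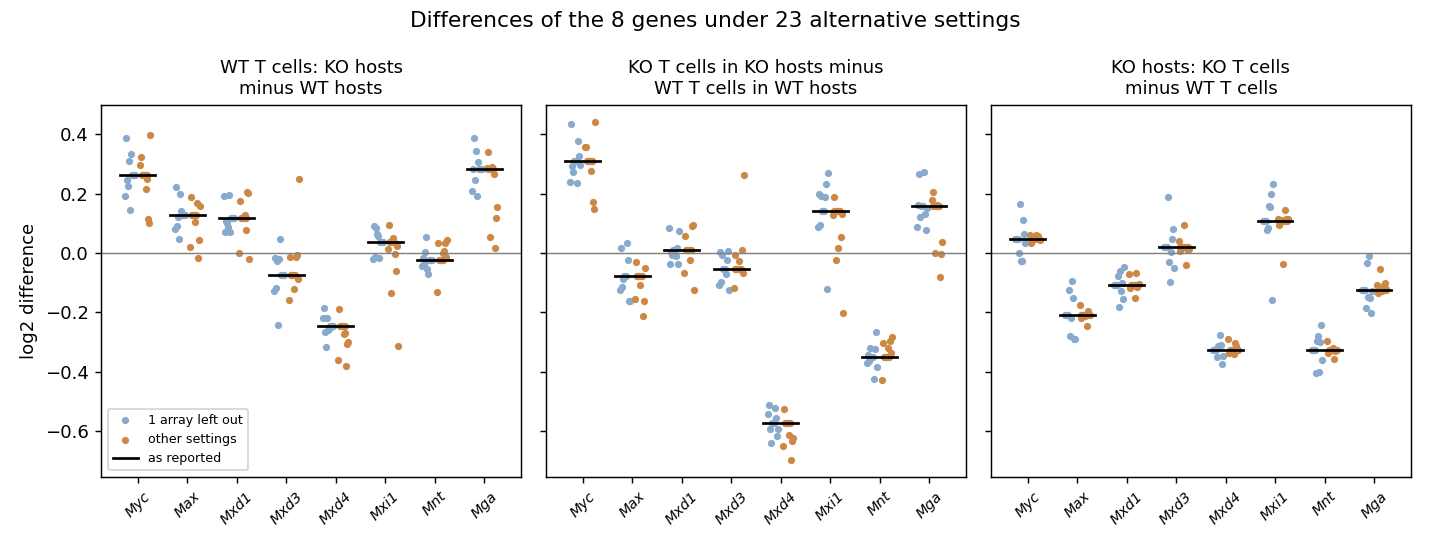
Log2 difference (vertical axis) of each of the 8 genes as reported (black bar), with 1 array left out (blue) and under other settings (orange), in the 3 comparisons. Mxd4 stays below 0 at every setting shown, and Mnt does in both comparisons that involve KO T cells. The groups of Mxd4 do not overlap, so leaving out an array cannot turn its sign. Settings that change only the error or the other group's arrays leave a point on the bar.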

How the data were processed

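RNA of sorted cells was amplified and hybridised to arrays. The authors deposited 115830 rows of log2 signals, from 1.27 to 14.4, with RMA, Partek and genome build mm9 named in the submitters' processing notes; the log2 scale was read from the values. By GEO's annotation of the array, 25539 name 1 gene, 2300 several, and 87991 are unnamed here. For each gene the row of highest mean was used, and genes under the 25th percentile of means (4.33) were left out.

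Groups came from the sample titles. limma (version 3.58.1, R 4.3.3) was fitted to all 11 arrays with group means, and p-values were adjusted by Benjamini-Hochberg over 15194 genes per comparison, with a threshold of 0.05. Each gene's mean over arrays was subtracted and the rest averaged over a list, per array; for 14 genes this gave the macrophage score. Pairs of members were correlated with 100000 permutations (SciPy 1.17.1). The fit was checked on simulated data. The members and gene lists were chosen with earlier results of these data known. Named list genes come from the 4 (or fewer) of lowest p per list and comparison. Alternatives covered normalization, filter, rows, variance model, weights, samples, replicate numbers, value range, macrophage score and each array left out. The small number of arrays limits the precision.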

Additional observations from a re-analysis of the deposited data

How the results depend on the processing

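Of 552 values of the 8 genes under 23 alternatives, 334 differed from the reported value, since some settings change only the error or arrays of a group not compared. Of these 334, 289 kept their direction, 44 turned sign, 1 (Mga) was at 0, and 0 passed the threshold. Mxd4 kept its direction throughout, which leaving out arrays could not change, since its groups do not overlap. Mnt kept its direction where KO T cells were compared, and its KO arrays do not overlap those of the reference either. With every array, 0 genes passed in any comparison (unadjusted p under 0.05 in 1136, 1285 and 519 genes). In KO T cells against the reference, 2 genes passed after quantile normalization, with the stricter filter or with rows of a gene averaged, 3 after median centring, and 0 to 1 when an array was left out (1 without array 4 of KO T cells). None of them was a member.

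With the replicate number as a block, 3 genes passed there. After subtracting each gene's group mean, same-numbered arrays of different groups correlated between -0.114 and 0.123 over the tested genes. The labels do not say whether the numbers pair the samples, and so few arrays cannot settle it. Under the block Mxi1 was -0.0033 and Mnt 0.0067 between hosts, and Mxd3 -0.039 between T cells. The median of the proliferation list between T cells in KO hosts was 0.144 under the block, against 0.229.

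Other values turned between hosts. With the value range in the fit, Max was -0.0154, Mxi1 -0.06 and Mnt 0.0334. With the macrophage score, Mxd1 was -0.0208, Mxd3 0.2501, Mxi1 -0.3141 and Mnt 0.0452. Mxi1 was -0.1333 with the mean of rows, and Mnt 0.0346 after median centring. Leaving out arrays gave -0.243 to 0.0459 for Mxd3, -0.0207 to 0.0926 for Mxi1 and -0.0718 to 0.0536 for Mnt.

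In KO T cells against the reference, Mxd1 was -0.0681 after quantile normalization, -0.0229 with array weights and -0.125 with the macrophage score. With that score Mxd3 was 0.264 and Mxi1 -0.2004. With the value range Mxd3 was 0.0092 and Mga -0.0823, Mga was -0.0039 without the narrow reference arrays, and Mxi1 -0.0233 with the mean of rows. Leaving out arrays gave -0.1612 to 0.0337 for Max, -0.0359 to 0.085 for Mxd1, -0.1247 to 0.0082 for Mxd3 and -0.1223 to 0.2701 for Mxi1. Between T cells in KO hosts, Mxi1 was -0.0354 with array weights, and leaving out arrays gave -0.0281 to 0.1654 for Myc, -0.0988 to 0.1901 for Mxd3 and -0.1584 to 0.234 for Mxi1. Where the cause is not plain from the setting, the cause was not tested.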

Other observations

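Among 15194 genes, those whose signal followed a member most closely over the 11 arrays, after subtracting group means, were Snapc3 for Mxd4 (r = 0.959), Tmem37 for Mnt (r = 0.960), Polr2j for Myc (r = 0.937), Akap8l for Max (r = 0.935), Abtb1 for Mxd3 (r = 0.955), St6galnac3 for Mxi1 (r = 0.974) and Ctdp1 for Mga (r = 0.946). These are the highest of many values over few arrays and are given as a description.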
